A study of Mus musculus with 2 samples.

Results

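Tip-like blood endothelial cells were taken from 2 single-cell libraries of mouse mammary tumors sorted for endothelium, PyMT-M and PyMT-N, by their expression of 5 marker genes. The candidates were 1309 blood endothelial cells among 14795 cell barcodes, and the tip-like cells were the 327 of them (25%) with the highest sum of Apln, Esm1, Angpt2, Pgf and Cxcr4 in CPM, counts scaled to a common total. PyMT-M gave 167 tip-like cells of 456 candidates, and PyMT-N gave 160 of 853. The other 75% of candidates, 289 cells of PyMT-M and 693 of PyMT-N, were the reference, called the other gated cells here. A candidate had at least 1000 detected genes, at most 10% mitochondrial UMIs, at least 5 UMIs of Pecam1, Flt1, Emcn and Kdr together, and at most 1 UMI of Krt8, Krt18, Rhox5, Col1a1, Col3a1 and Ptprc together. It also had no UMI of Prox1, fewer than 8 UMIs of 7 cell cycle genes and fewer than 3 UMIs of Ackr1 and Selp, so that lymphatic, cycling and postcapillary venous cells were kept out. A UMI, or unique molecular identifier, marks 1 captured RNA molecule.

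PyMT-M and PyMT-N are sub-lines of the MMTV-PyMT model, in which a viral mammary promoter drives the polyoma middle T oncogene in mammary epithelium, and the study classes them as macrophage-enriched (High-MAC) and macrophage-poor (Low-MAC). Cells of each sub-line were injected into the mammary fat pad of female C57BL/6 mice, young adults by the methods of the study, for which the labels give no further allele or treatment, and the comparison asks how tumor endothelium differs between these states. Tumors were dissociated, depleted of CD45+ and Ter119+ cells, selected with antibodies to CD31 and CD144 and sorted as live CD31+ CD144+ cells for 10x Genomics 3′ sequencing. Each library is a pool of 3 tumors, so there is 1 library per model, no difference between models has a replicate check, and cells were not used as replicates for any test.

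Tip cells lead the growth of a new vessel sprout. They extend filopodia towards a gradient of VEGF-A, degrade and rebuild the basement membrane, and hold back their neighbors from the same role through Dll4 and Notch. Apelin, endocan, angiopoietin-2, placental growth factor and Cxcr4 are genes often raised in tip cells of tumors and of the growing retina, and hypoxia and glycolysis are closely tied to sprouting.

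The gated cells were shallower in PyMT-M. Tip-like cells held a median of 5416 UMIs and 2339 genes in PyMT-M against 13446 UMIs and 3989 genes in PyMT-N, whereas all barcodes of the libraries had medians of 18790 and 15878 UMIs. Of 6284 PyMT-M and 5574 PyMT-N barcodes within the quality limits, 678 and 1419 also passed the endothelial limit. Cells with tumor markers and no endothelial marker UMI numbered 4582 and 3122. The medians over all barcodes thus include many cells that are not endothelial. The other gated cells had medians of 4327 and 11865 UMIs, so tip-like cells were the deeper class in both libraries. Summed over cells, the tip-like class of PyMT-M held 975104 UMIs and that of PyMT-N 2274551, and the reference 1446819 and 8908759. The libraries shared 20 barcodes, and 1 tip-like cell carried such a barcode. Intervals are at 95% and cover counting error only, and all are exact but those of the ratio and the difference of the tip-like shares, which are approximate.

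Of 12 endothelial identity genes, the gate used 4 (Pecam1, Flt1, Emcn and Kdr), so their presence is fixed by the choice of cells. Cdh5 (CD144), which the gate did not use, was at 1086 CPM in PyMT-M tip-like cells and 1391 CPM in those of PyMT-N. All 12 were detected in tip-like cells, with a sum of 9318 CPM in PyMT-M (other gated cells 10208) and 10283 CPM in PyMT-N (9589). Tek, the angiopoietin receptor Tie2, was the gene of these 12 that stood at least 1.5-fold lower in tip-like cells in both libraries.

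The 5 markers chose the cells, so their levels are a description. Apln (ENSMUSG00000037010), the ligand apelin, was at 959.9 CPM in PyMT-M tip-like cells and 537 CPM in PyMT-N tip-like cells, against 138 and 72.8 CPM in the other gated cells. Esm1 (ENSMUSG00000042379), the secreted proteoglycan endocan, was at 638 and 888 CPM, against 64.3 and 76.4 CPM. Angpt2 (ENSMUSG00000031465), a ligand that antagonizes Tie2 in many settings, was at 652 and 381 CPM, against 86.4 and 59.7 CPM. Among tip-like cells Apln and Angpt2 were thus at a higher level in PyMT-M, and Esm1 in PyMT-N. Pgf (ENSMUSG00000004791), a ligand of Flt1, was at 621 CPM in PyMT-M tip-like cells and 457 CPM in PyMT-N tip-like cells, against 23.5 and 73.2 CPM in the other gated cells. Cxcr4 (ENSMUSG00000045382), the receptor of Cxcl12, was at 178 and 251 CPM, against 29.0 and 95.1 CPM. Cxcr4 had the smallest log2 ratio of the 5, 1.40 in PyMT-N, and Pgf the largest, 4.72 (4.23 to 5.27) in PyMT-M.

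**Figure D1:**
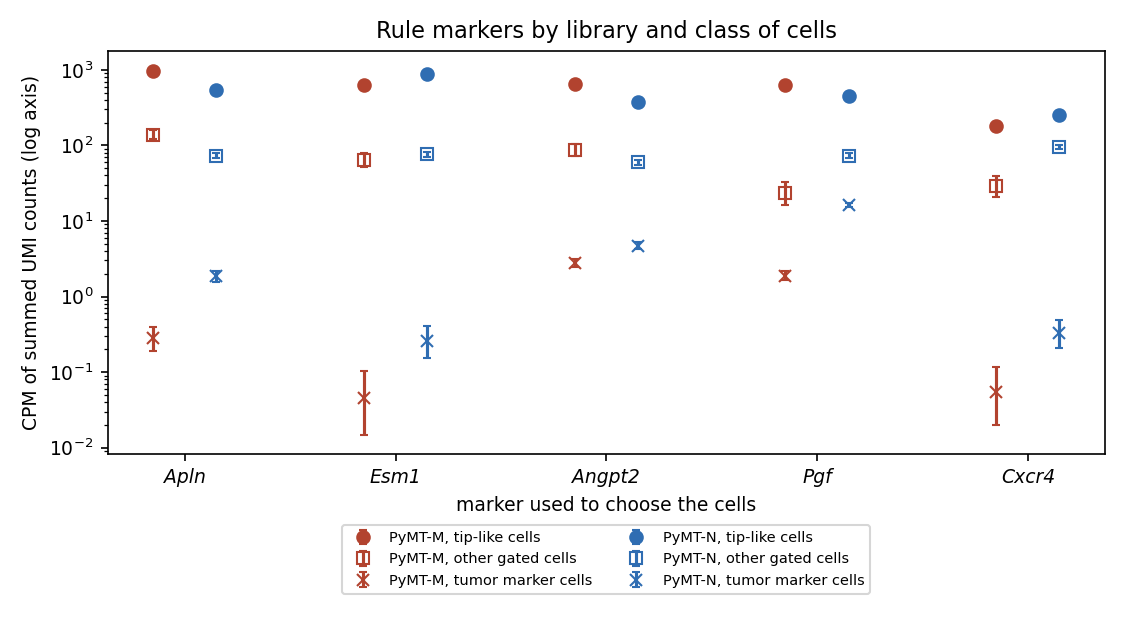
CPM (vertical log axis) of the 5 markers that chose the cells (horizontal axis), in PyMT-M (red) and PyMT-N (blue). Filled circles are tip-like cells, open squares the other gated cells and crosses cells with tumor markers and no endothelial marker UMI, with exact 95% counting intervals. Tip-like cells lie above both other classes for each marker, from 178 CPM for Cxcr4 in PyMT-M to 959.9 CPM for Apln in PyMT-M.

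The rule places the cells on a continuous score and not in a separate cluster. The last cell inside had a summed 1141 CPM and the first outside 1138 CPM, and 55 gated cells of PyMT-M (12.1%) and 95 of PyMT-N (11.1%) lay within 1.25-fold of that limit. The tip-like median was 2299 CPM in PyMT-M and 2016 CPM in PyMT-N, and the highest cells reached 11606 and 8808 CPM. Of the other gated cells, 122 in PyMT-M (42.2%) and 146 in PyMT-N (21.1%) had no UMI of any of the 5 genes.

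Detection per cell differed by marker. Among tip-like cells, Apln had a UMI in 77.8% of PyMT-M cells (70.8 to 83.9%) and 65.6% of PyMT-N cells (57.7 to 72.9%), and Esm1 in 68.9% (61.3 to 75.8%) and 87.5% (81.4 to 92.2%). Angpt2 was detected in 85.0% and 78.1%, Pgf in 52.7% and 64.4%, and Cxcr4 in 47.9% and 75%. To set the libraries at 1 depth, cells were thinned to 3000 UMIs, which left out 26 shallower tip-like cells of PyMT-M and none of PyMT-N. The share then became 75.2% in PyMT-M and 50% in PyMT-N for Apln, 56.7% and 69.4% for Esm1, and 72.3% and 49.4% for Angpt2. For Pgf it was 51.8% and 44.4% and for Cxcr4 39.0% and 46.2%, so the order of the libraries for Pgf turned with depth. In the other gated cells at the same depth, of which 54 and 6 were left out as shallower, the shares ran from 2.55% for Pgf in PyMT-M to 25.5% for Apln in PyMT-M. Cells with tumor markers and no endothelial marker UMI, with medians of 23500.5 and 20438.5 UMIs, gave the level outside endothelium. Whether it came from free RNA, other cells or the tumor cells themselves was not tested. In these tumor marker cells Esm1 was detected in 0.109% of PyMT-M and 0.577% of PyMT-N cells, Cxcr4 in 0.131% and 0.673% and Apln in 0.677% and 2.91%. Angpt2, at 6.24% and 9.80%, and Pgf, at 2.97% and 21.6%, were the more frequent there, and remained below the tip-like shares although these cells were deeper.

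Most tip-like cells carried several of the markers. At 3000 UMIs, 64.5% of PyMT-M and 50.6% of PyMT-N tip-like cells had at least 3 of the 5, against 1.70% and 3.49% of the other gated cells. Without thinning, at least 3 were detected in 74.9% and 88.1% of tip-like cells, and all 5 in 17.4% and 26.2%. Over all gated cells of PyMT-M at 3000 UMIs, each marker was the more frequent in cells that held any other. Cxcr4 had a UMI in 49.4% of cells with Pgf and 11.1% of cells without it, and Angpt2 in 55.4% of cells with Apln and 26.7% without. In PyMT-N this held for each pair but Apln and Cxcr4. There Cxcr4 was found in 21.3% of cells with Apln and 27.0% of cells without it, while it was found in 41.7% of cells with Esm1 and 20.4% without. Within the tip-like class itself Cxcr4 was the less frequent in cells with Apln, at 33.0% against 57.1% in PyMT-M and 31.2% against 61.2% in PyMT-N. Other pairs went the opposite way in that class, such as Cxcr4 in 49.3% of PyMT-M cells with Pgf and 27.9% of those without. These shares describe cells that were chosen on the same markers.

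**Figure D2:**
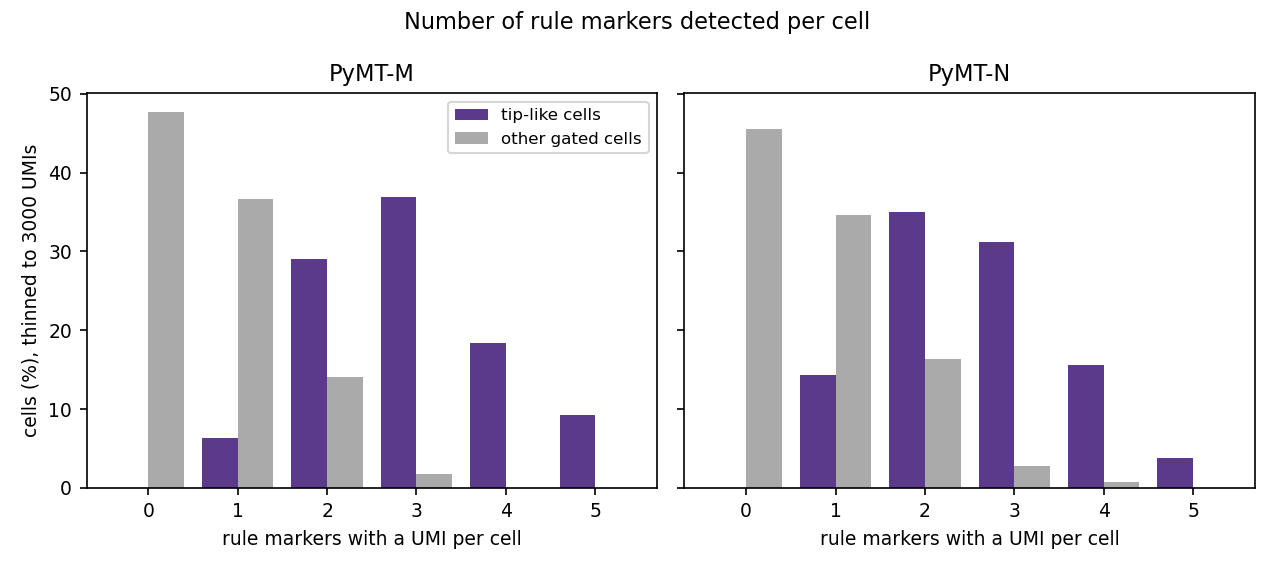
Share of cells (vertical axis, %, after thinning to 3000 UMIs) by how many of the 5 markers had a UMI (horizontal axis), for tip-like (purple) and other gated cells (grey) of each library. Tip-like cells peak at 2 to 3 markers and the other gated cells at 0, where 47.7% of PyMT-M and 45.6% of PyMT-N reference cells lie.

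Each marker was also scored with the cells chosen on the other 4 alone, so that its own counts did not enter the choice. Apln was then at 851 CPM in the chosen cells of PyMT-M and 255 CPM in the rest, and at 362 and 114 CPM in PyMT-N. The log2 ratio in PyMT-M and PyMT-N was 1.74 and 1.67 for Apln, 1.74 and 2.15 for Esm1, 2.22 and 2.35 for Angpt2, 2.86 and 1.92 for Pgf, and 2.00 and 0.97 for Cxcr4. Of the 167 tip-like cells of PyMT-M, 82.6% (without Apln) to 97.0% (without Cxcr4) were chosen again, and of the 160 of PyMT-N 73.8% (without Esm1) to 96.3% (without Angpt2).

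The tip-like share of gated cells was 36.6% in PyMT-M (32.2 to 41.2%) and 18.8% in PyMT-N (16.2 to 21.5%), a ratio of 1.95 (1.62 to 2.35) and a difference of 17.9 points (12.6 to 23.1). The rule fixes the pooled share, so that only its division between the libraries is a measurement. When cells were chosen after thinning to 3000 UMIs the ratio was 1.87, and with Apln left out of the score it was 1.57. Since cells of 3 tumors were pooled, a difference between models and a difference between these pools cannot be told apart.

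The marker with the highest CPM in a cell divided the class. A tie went to the first in the order Apln, Esm1, Angpt2, Pgf and Cxcr4, so ties favored Apln and never Cxcr4. Ties were not counted, and cells with few marker UMIs can tie. Apln led 64 tip-like cells of PyMT-M (38.3%), Esm1 39, Pgf 32, Angpt2 30 and Cxcr4 2. In PyMT-N Esm1 led 72 cells (45.0%), Pgf 35, Apln 31, Angpt2 13 and Cxcr4 9. The Pgf-led cells held the highest sum of 19 hypoxia response genes among these groups, at 3731 CPM in PyMT-M and 3581 CPM in PyMT-N, against 1436 and 1803 CPM in Esm1-led cells. The 17 glycolysis genes followed, at 7907 and 7845 CPM in Pgf-led cells and 4684 and 5182 CPM in Esm1-led cells. The 10 arterial genes had the opposite order, at 1203 and 1112 CPM in Esm1-led cells and 532 and 994 CPM in Pgf-led cells. Apln-led cells stood at 2096 and 2146 CPM of hypoxia genes and 506 and 535 CPM of arterial genes. The 9 Cxcr4-led cells of PyMT-N had 1586 CPM of arterial and 1871 CPM of Notch genes, from a small sum of UMIs.

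Beyond the markers of the rule, 17 further genes known from tip cells were examined. Their sum was 9357 CPM in tip-like against 5730 CPM in other gated cells of PyMT-M, and 12276 against 8661 CPM in PyMT-N. Of the 17, 6 were at least 1.5-fold higher in both libraries and none was as much lower in both. Over all 4275 genes with at least 100 UMIs in the gated cells of each library, the 5 markers left out, 57 genes (1.33%) were at least 1.5-fold higher in both libraries and 73 (1.71%) at least 1.5-fold lower. These 4275 genes had median log2 ratios of -0.03 (PyMT-M) and -0.04 (PyMT-N), and the 17 tip genes 0.63 and 0.40. Since the same cells give the score and the ratios, these counts describe the class and test nothing.

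Chst1, a carbohydrate sulfotransferase, was at 140.5 CPM in tip-like against 42.2 CPM in other gated cells of PyMT-M, and at 309 against 186 CPM in PyMT-N. Inhbb, the activin beta-B subunit, was at 253 against 119.6 CPM and at 453 against 269 CPM. Kcne3, a potassium channel subunit, was at 195 against 112 CPM and at 241 against 136 CPM. Each was higher in tip-like cells of both libraries, as were Pdgfb, the ligand that draws in pericytes (456 against 238 CPM and 291 against 194 CPM), and Igfbp3, an insulin-like growth factor binding protein with log2 ratios of 0.63 and 0.75. Dll4, the Notch ligand of tip cells, was at 288 against 198 CPM and 358 against 268 CPM, log2 ratios of 0.54 and 0.42 that miss the 1.5-fold limit. Ramp3, a partner of the adrenomedullin receptor, went opposite ways, at 35.9 against 60.8 CPM in PyMT-M and 97.2 against 54.1 CPM in PyMT-N. Mcam, Unc5b and Rasgrp3, with log2 ratios of -0.01, -0.01 and -0.03 in PyMT-N, did not set the class apart there.

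Outside the rule, the 10 genes highest in tip-like cells included secreted factors, matrix genes and hypoxia genes. Adm, the vasodilator peptide adrenomedullin and a member of the 17 tip genes, was at 452 CPM in tip-like against 42.9 CPM in other gated cells of PyMT-M, and at 277 against 55.8 CPM in PyMT-N, log2 ratios of 3.40 (3.01 to 3.81) and 2.31 (2.14 to 2.48). Ccn2, the matricellular protein CTGF, was at 251 against 43.5 CPM and at 152 against 22.8 CPM, log2 ratios of 2.53 and 2.74. Thbs1, the matrix glycoprotein thrombospondin-1 and an inhibitor of angiogenesis, was at 324 against 83.6 CPM and at 142 against 17.6 CPM. Of these 3 genes Adm had UMIs in the most cells, 97 of PyMT-M and 111 of PyMT-N. Fn1, or fibronectin, was at 296 against 53.2 CPM and at 780.4 against 259 CPM. In PyMT-M its UMIs lay in 42 tip-like cells, and 5 cells held 42.9% of them. Angptl4, a secreted inhibitor of lipoprotein lipase, was at 265 against 87.1 CPM and at 91.0 against 39.4 CPM. Tnfrsf9, the costimulatory receptor CD137, was at 252 against 98.8 CPM and at 187 against 53.9 CPM. Mt1, a metallothionein, was at 86.1 against 22.8 CPM and at 103 against 35.4 CPM. In PyMT-M 5 tip-like cells held 45.2% of the UMIs of Mt1, and 5 held 43.6% of those of Ero1a, a hypoxia gene of the 10. The largest ratio of the nearer library was that of Chga, chromogranin A of neuroendocrine granules, at 285 against 33.9 CPM and 46.6 against 1.68 CPM. It rested on few cells, since 30 tip-like cells of PyMT-M and 7 of PyMT-N had a UMI and 5 cells held 98.1% of its UMIs in PyMT-N. Its log2 ratio in PyMT-M, 3.07, was 0.85 when the top 10% of gated cells were taken.

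**Figure D3:**
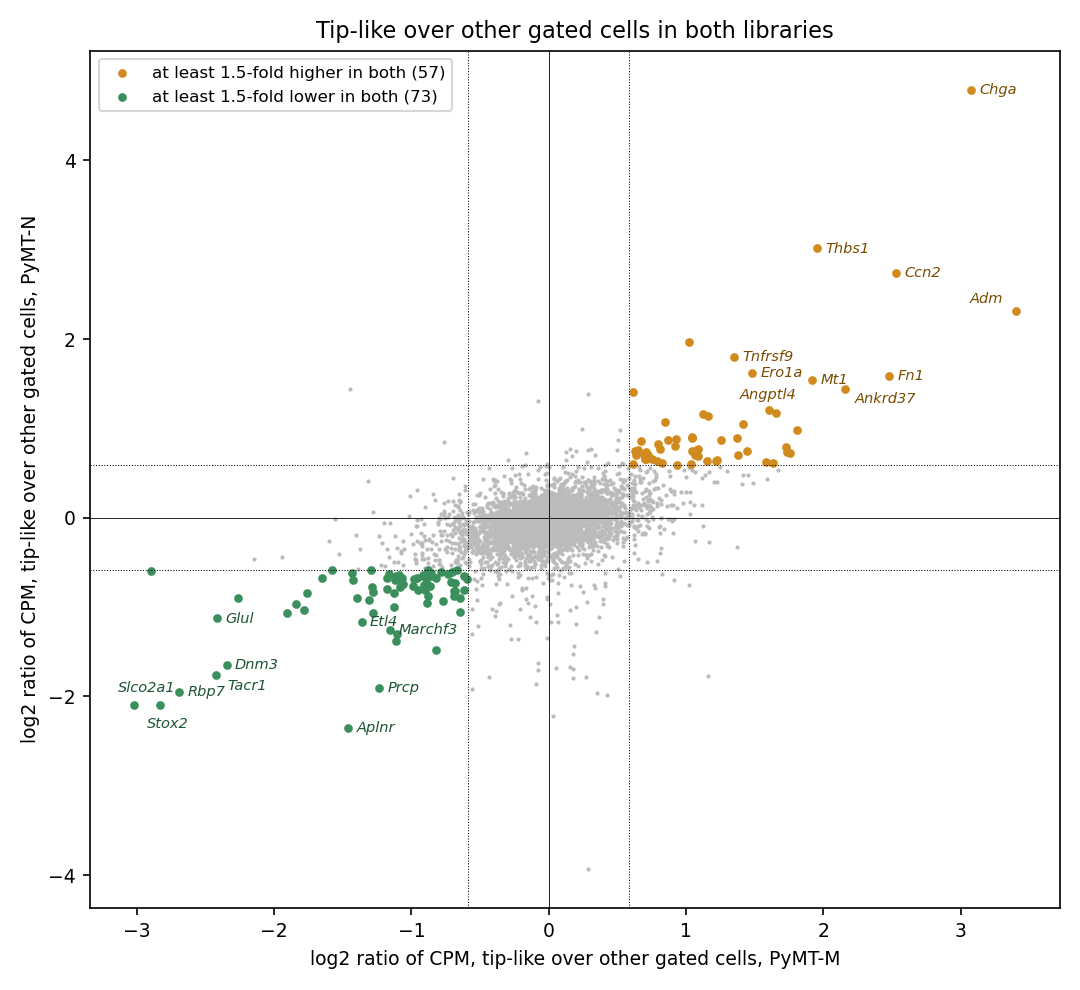
Log2 ratio of CPM, tip-like over other gated cells, in PyMT-M (horizontal) and PyMT-N (vertical), for genes with at least 100 UMIs in the gated cells of each library. Orange points are the 57 genes at least 1.5-fold higher in both libraries and green points the 73 at least 1.5-fold lower, with dotted lines at 1.5-fold, and the 10 named at either end reach 3.40 for Adm and -3.02 for Slco2a1 in PyMT-M.

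Genes of the hypoxia response were higher as a group. Their sum was 2287 CPM in tip-like cells of either library, against 1091 CPM in other gated cells of PyMT-M and 1394 CPM in those of PyMT-N. Of 19 genes 11 had enough UMIs, 6 of them were at least 1.5-fold higher in both libraries, none was as much lower, and the medians were 0.75 and 0.66. Besides Adm these were Ankrd37 (126 against 28.3 CPM in PyMT-M and 111 against 40.7 CPM in PyMT-N), Ero1a, the oxidase of disulfide formation (96.4 against 34.6 CPM and 118 against 38.5 CPM), Ndrg1 (log2 ratios 0.70 and 0.70), P4ha1, a collagen prolyl hydroxylase (0.75 and 0.66), and Mif, a cytokine at 445 against 235 CPM and 351 against 201 CPM. Among the rarer, unranked genes Egln3, an oxygen sensor of HIF, was at 63.6 against 4.15 CPM and 95.8 against 34.8 CPM. Ddit4, also unranked, had the opposite order, 20.5 against 38.0 CPM and 44.4 against 68.9 CPM. The HIF subunits themselves differed little, with log2 ratios of 0.10 and -0.10 for Hif1a and -0.38 and -0.15 for Epas1.

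The 17 glycolysis genes summed to 6488 CPM in tip-like against 4595 CPM in other gated cells of PyMT-M, and to 6075 against 4374 CPM in PyMT-N. The 13 with enough UMIs had medians of 0.43 and 0.50, against -0.03 and -0.04 over all 4275 ranked genes, and 3 passed 1.5-fold in both. These were Slc2a1, the glucose transporter Glut1 (87.2 against 37.3 CPM and 125 against 79.8 CPM), Tpi1 (325 against 171 CPM and 296 against 161 CPM) and Pgk1 (384 against 218 CPM and 311 against 183 CPM). Pfkfb3, an activator of glycolysis studied in sprouting vessels, was below the UMI limit and stood at 30.8 against 27.6 CPM and 56.3 against 40.1 CPM.

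Promoters are shown for Adm and Ero1a, hypoxia genes higher in both libraries, and for Apln, the marker at the highest CPM in PyMT-M tip-like cells. They are the 250 bases before the RefSeq start on GRCm38.p6, which is not the build of the counts, written 5′ to 3′ on the gene's strand. Capitals mark the HIF core letters ACGTG or GCGTG on either strand, the latter forms reading CACGT and CACGC. The Adm stretch is chr7:110627407-110627656 (plus strand) and has 2 matches, that of Ero1a is chr14:45318573-45318822 (minus strand) with 3, and that of Apln is chrX:48034854-48035103 (minus strand) with none.
Adm: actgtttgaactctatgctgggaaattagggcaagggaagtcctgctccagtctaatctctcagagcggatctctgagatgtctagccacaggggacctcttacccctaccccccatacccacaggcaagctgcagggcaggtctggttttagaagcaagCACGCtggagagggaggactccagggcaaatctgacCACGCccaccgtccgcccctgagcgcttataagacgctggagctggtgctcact
Ero1a: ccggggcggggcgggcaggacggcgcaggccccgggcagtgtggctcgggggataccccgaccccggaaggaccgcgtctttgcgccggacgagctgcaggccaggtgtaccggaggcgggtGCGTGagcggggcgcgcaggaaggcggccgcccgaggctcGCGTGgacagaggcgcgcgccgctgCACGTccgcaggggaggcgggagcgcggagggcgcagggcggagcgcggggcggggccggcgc
Apln: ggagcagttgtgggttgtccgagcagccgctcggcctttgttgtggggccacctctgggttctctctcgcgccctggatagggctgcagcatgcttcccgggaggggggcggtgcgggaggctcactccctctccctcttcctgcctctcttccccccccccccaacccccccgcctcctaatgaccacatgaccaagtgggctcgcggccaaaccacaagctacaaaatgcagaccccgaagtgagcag

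Over windows of 250 bases before to 50 after the start, these letters occurred in 38 of 64 promoters (59.4%) of the genes at least 1.5-fold higher in both libraries, of which 45 of 57 matched by symbol. They occurred in 39 of 79 promoters (49.4%) of the lower genes, in 63.3% of the 4466 promoters of all ranked genes and in 43.8% of all 32851 promoters. Counted by gene, 32 of the 45 matched higher genes (71.1%) and 2409 of 3415 matched ranked genes (70.5%) had a promoter with these letters, so the order of higher and ranked genes depends on whether promoters or genes are counted. A match is a run of letters and not a bound site.

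Genes lower in tip-like cells included receptors, transporters and enzymes. Slco2a1, the prostaglandin transporter, was at 18.5 CPM in tip-like against 149 CPM in other gated cells of PyMT-M, and at 38.3 against 163 CPM in PyMT-N, log2 ratios of -3.02 (-3.80 to -2.32) and -2.09 (-2.42 to -1.78). Stox2 was at 23.6 against 168 CPM and at 42.7 against 183 CPM. Tacr1, the substance P receptor, was at 15.4 against 82.2 CPM and at 41.3 against 140.4 CPM. The low level of these 3 genes was common to both libraries. Rbp7, a retinol binding protein of endothelium, was at 36.9 against 238 CPM in PyMT-M and at 4.84 against 18.6 CPM in PyMT-N, the latter from 5 cells. Dnm3 (dynamin 3) was at 28.7 against 146 CPM and 14.5 against 45.5 CPM, and Glul, glutamine synthetase, at 20.5 against 109 CPM and 23.7 against 51.9 CPM. Prcp, a carboxypeptidase, was at 71.8 against 169 CPM and 79.6 against 299 CPM. Etl4 and Marchf3, a membrane ubiquitin ligase, were also among the 10, as was Aplnr, the apelin receptor. Etl4 and Marchf3 had log2 ratios of -1.36 and -1.17 and of -1.15 and -1.26.

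The receptors of Apln and Angpt2 were lower in tip-like cells of both libraries, while a decoy receptor of the Cxcr4 ligand was higher. Aplnr, the apelin receptor, was at 97.4 CPM in tip-like against 268 CPM in other gated cells of PyMT-M, and at 50.6 against 258 CPM in PyMT-N, while its ligand Apln chose the cells. Tek, the receptor of Angpt2, was at 96.4 against 179 CPM and 82.2 against 131 CPM. Ackr3, the scavenging receptor of Cxcl12, was higher, at 101 against 38.7 CPM and 189 against 116 CPM. Cxcl12 itself was at 201 against 203 CPM in PyMT-M and at 18.0 against 33.3 CPM in PyMT-N. Of the 8 genes in this group 7 had enough UMIs, 2 were at least 1.5-fold higher in both libraries (Ackr3 and Angptl4) and 2 at least 1.5-fold lower (Aplnr and Tek), with medians of -0.18 and -0.23, and Angpt1 was at 0 in tip-like cells.

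The VEGF receptors did not set the class apart. Kdr (VEGFR2), part of the gate, was at 518 against 626 CPM and 389 against 446 CPM, and Flt1, also part of the gate, at 1124 against 1365 CPM in PyMT-M and 1519 against 1128 CPM in PyMT-N. Flt4 (VEGFR3) was at 60.5 against 42.9 CPM and 111 against 119.5 CPM, and Nrp1 at 355 against 451 CPM and 507 against 513 CPM. Of 9 VEGF ligands and receptors 6 had enough UMIs and none passed 1.5-fold in both libraries in either direction, with medians of -0.28 and -0.15. Vegfa was rare, at 8.20 against 1.38 CPM and 4.40 against 3.03 CPM. Of 12 Notch genes 8 had enough UMIs and none passed, with medians of 0.16 and 0.14. Of 20 axon guidance genes 12 had enough UMIs and Sema6a alone passed, lower at 59.5 against 178 CPM in PyMT-M and 171 against 256 CPM in PyMT-N. The axon guidance medians were 0.05 and -0.00, and Robo1 and Sema6a of that list are named by the study from these libraries.

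Matrix and cytoskeleton genes differed by small ratios. The 16 basement membrane genes, all ranked, summed to 18094 against 15467 CPM in PyMT-M and 24102 against 20833 CPM in PyMT-N, yet of these genes only Fn1, which the study names from these libraries with Sparcl1 and Col4a2, passed 1.5-fold in both. Col4a1, a type IV collagen chain, had log2 ratios of 0.06 and 0.07, and Sparc, a collagen-binding matricellular protein, 0.22 and 0.32. Of 15 genes of matrix proteolysis 12 had enough UMIs to be ranked. The medians were 0.24 and 0.06 for basement membrane and -0.05 and -0.08 for proteolysis. Mmp14, the membrane matrix metalloproteinase of tip cells, was at 268 against 178 CPM in PyMT-M and 362 against 384 CPM in PyMT-N. None of the 9 ranked integrins, 17 ranked actin and motility genes or 12 ranked junction genes passed, with medians of 0.21 and 0.27, 0.24 and 0.05, and 0.04 and 0.04. Itgb3 and Itgav, chains of the vitronectin receptor, had log2 ratios of 0.58 and 0.55 and of 0.74 and 0.55, and Fscn1, which bundles the actin of filopodia, 0.93 and 0.11.

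Of 22 endothelial transcription factors and regulators 20 were ranked, none was at least 1.5-fold higher in both libraries and 4 were at least 1.5-fold lower, with medians of -0.12 and -0.09. Over all 4275 ranked genes the medians were -0.03 and -0.04. Klf6, an injury-induced factor, was at 289 against 129 CPM in PyMT-M and 219 against 153 CPM in PyMT-N, short of 1.5-fold in the latter. Klf2, induced by laminar flow, was at 154 against 304 CPM in PyMT-M and 101 against 162 CPM in PyMT-N, and Klf4, its relative, at 25.6 against 58.1 CPM and 18.0 against 31.3 CPM. Id1 and Id3, targets of BMP signaling, were at 269.7 against 433 CPM and 158 against 264 CPM and at 284 against 563 CPM and 151 against 257 CPM. Erg, Sox18 and Tcf4 had log2 ratios of 0.24 and 0.00, 0.12 and -0.13, and -0.01 and -0.03.

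The capillary sum was lower in tip-like cells of PyMT-M and higher in those of PyMT-N. The 10 capillary genes summed to 5137 CPM in tip-like against 7405 CPM in other gated cells of PyMT-M, and to 4535 against 3521 CPM in PyMT-N. Fabp4, a fatty acid binding protein, moved in the same directions, at 1490 against 3708 CPM and 1455 against 1095 CPM, as did Aqp1, a water channel, at 586 against 1039 CPM and 512 against 448 CPM. The other ranked capillary genes had the same sign in both libraries. Cd36, the fatty acid transporter (135 against 291 CPM and 13.2 against 32.4 CPM), and Cd300lg (118 against 246 CPM and 26.8 against 44.9 CPM) were lower in both libraries, whereas Gpihbp1 had log2 ratios of 0.42 and 0.41. Of 10 arterial genes 6 were ranked and Gja4, connexin 37, alone was at least 1.5-fold lower in both, at 56.4 against 122 CPM and 28.1 against 73.0 CPM. Of 8 venous genes 5 were ranked, and 2 were at least 1.5-fold lower in both libraries. These were Nr2f2, which specifies veins (41.0 against 109.9 CPM and 44.4 against 72.0 CPM), and Lrg1 (67.7 against 242 CPM and 179 against 350.2 CPM). The medians in PyMT-M and PyMT-N were -0.94 and 0.30 for the 6 ranked capillary, -0.39 and 0.21 for the arterial and -1.19 and -0.54 for the venous genes. The summed arterial and venous ratios of PyMT-N, 0.10 and 0.05 on the log2 scale, fell below 0 in 3 and 2 of 19 alternatives. Vwf, of the same group and named by the study from these libraries, was at 225 against 207 CPM and 915 against 644 CPM.

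**Figure D4:**
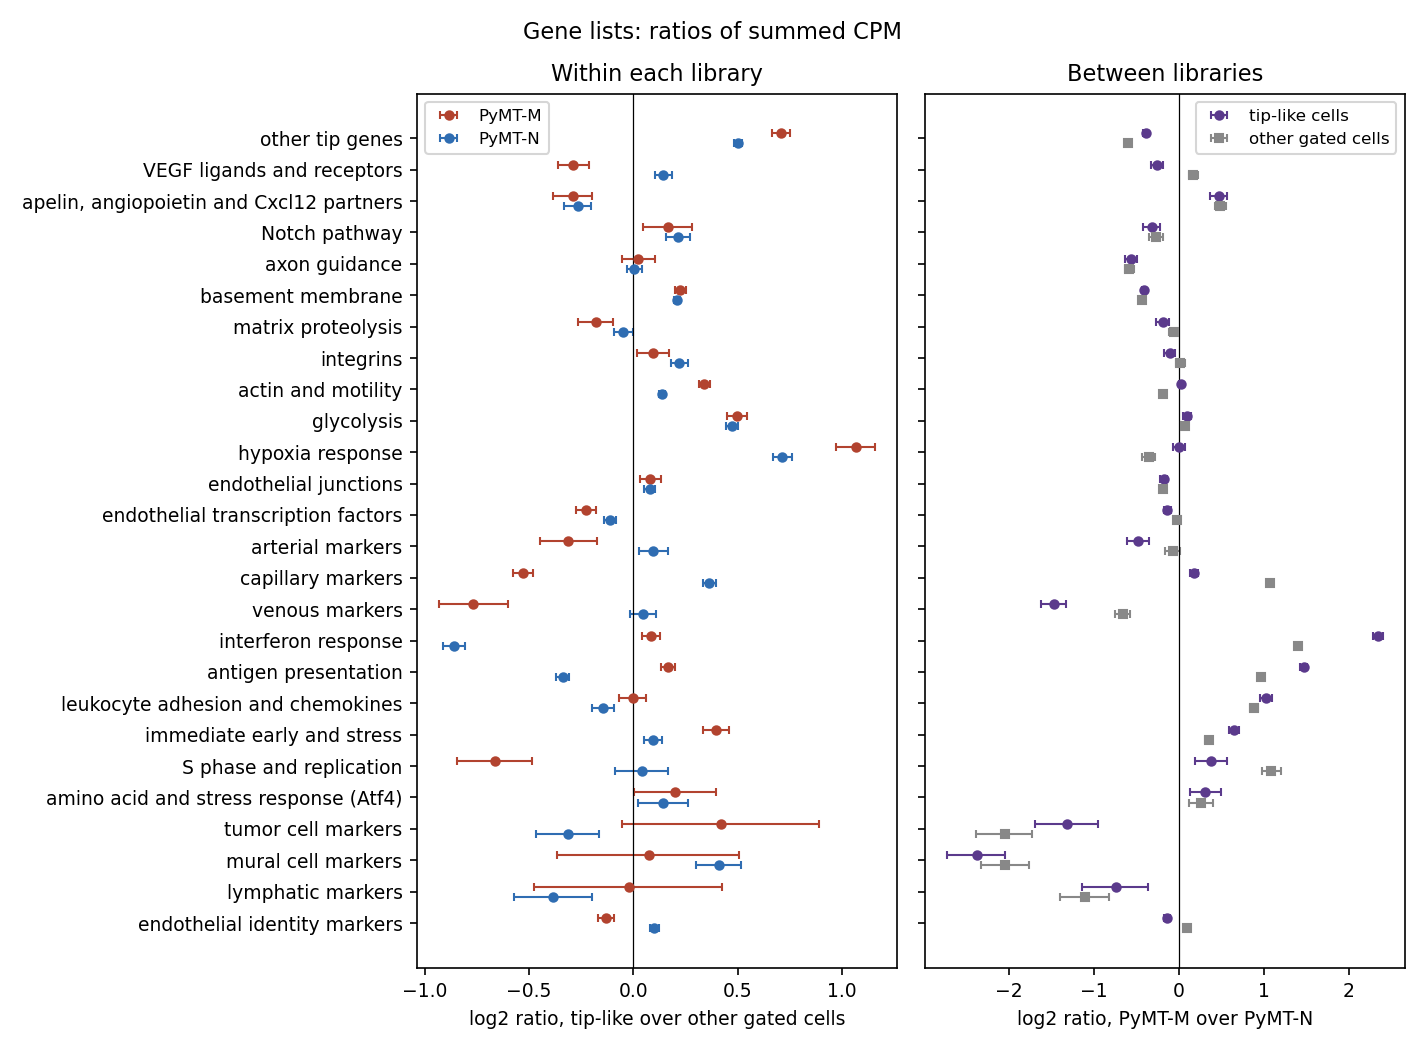
Log2 ratios of summed CPM for gene lists (rows; the rule markers and the erythroid, fibroblast and immune markers are not drawn), tip-like over other gated cells within PyMT-M (red) and PyMT-N (blue) on the left, and PyMT-M over PyMT-N within tip-like (purple) and other gated cells (grey) on the right, with exact 95% counting intervals. On the left hypoxia response stands highest of the lists drawn, at 1.07 and 0.71, and interferon response lies at 0.09 in PyMT-M (below 0 in 7 of 19 alternatives) and -0.86 in PyMT-N. On the right interferon response stands at 2.34 in tip-like and 1.40 in other gated cells.

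Interferon response genes separated the tip-like cells of the libraries. Its 25 genes summed to 7615 CPM in tip-like cells of PyMT-M and 1504 CPM in those of PyMT-N, against 7178 and 2727 CPM in the other gated cells. Within PyMT-N the sum was therefore lower in tip-like cells, a log2 ratio of -0.86 (-0.91 to -0.81), while within PyMT-M it was 0.09 (0.04 to 0.13), a value below 0 in 7 of 19 alternatives. Of 21 ranked genes none passed 1.5-fold in both libraries in either direction, and the medians were 0.07 and -1.03. Over 4 groups of gated cells, ordered by marker score and equal in size over both libraries, it went from 3002 to 2892, 2355 and 1504 CPM in PyMT-N, and from 7153 to 7155, 7231 and 7615 CPM in PyMT-M. The study names Bst2 and Ifi27l2a of this list and reports interferon-alpha and interferon-gamma responses as enriched in PyMT-M endothelium, from these libraries. The direction of the whole list between the libraries was thus known beforehand and is not independent evidence. Cxcl10, a chemokine for T cells, was at 292 against 239 CPM in PyMT-M and 6.16 against 93.8 CPM in PyMT-N. Rsad2 was at 321 against 289 CPM and 52.8 against 169 CPM, and Isg15, a ubiquitin-like modifier, at 738 against 706 CPM and 96.3 against 205 CPM. In PyMT-N each of these 3 was lower in tip-like cells, and in PyMT-M each was slightly higher. Some other ranked genes of the list were lower in tip-like cells of both libraries.

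Antigen presentation had the same order at smaller size, with medians over 15 ranked genes of 0.06 and -0.55 and none past 1.5-fold in both libraries. Its 16 genes summed to 12341 against 10989 CPM in PyMT-M and 4459.8 against 5639 CPM in PyMT-N. B2m, the light chain of class I molecules, was at 3583 against 3072 CPM and 1527 against 1798 CPM, and Tap1, the peptide transporter, at 130.2 against 139 CPM and 41.8 against 66.1 CPM. Counts of near-identical genes, such as those of the H2, Gbp, Ifit3, Apol9, Hspa1 and hemoglobin families, may have been split between copies and are uncertain.

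**Figure D5:**
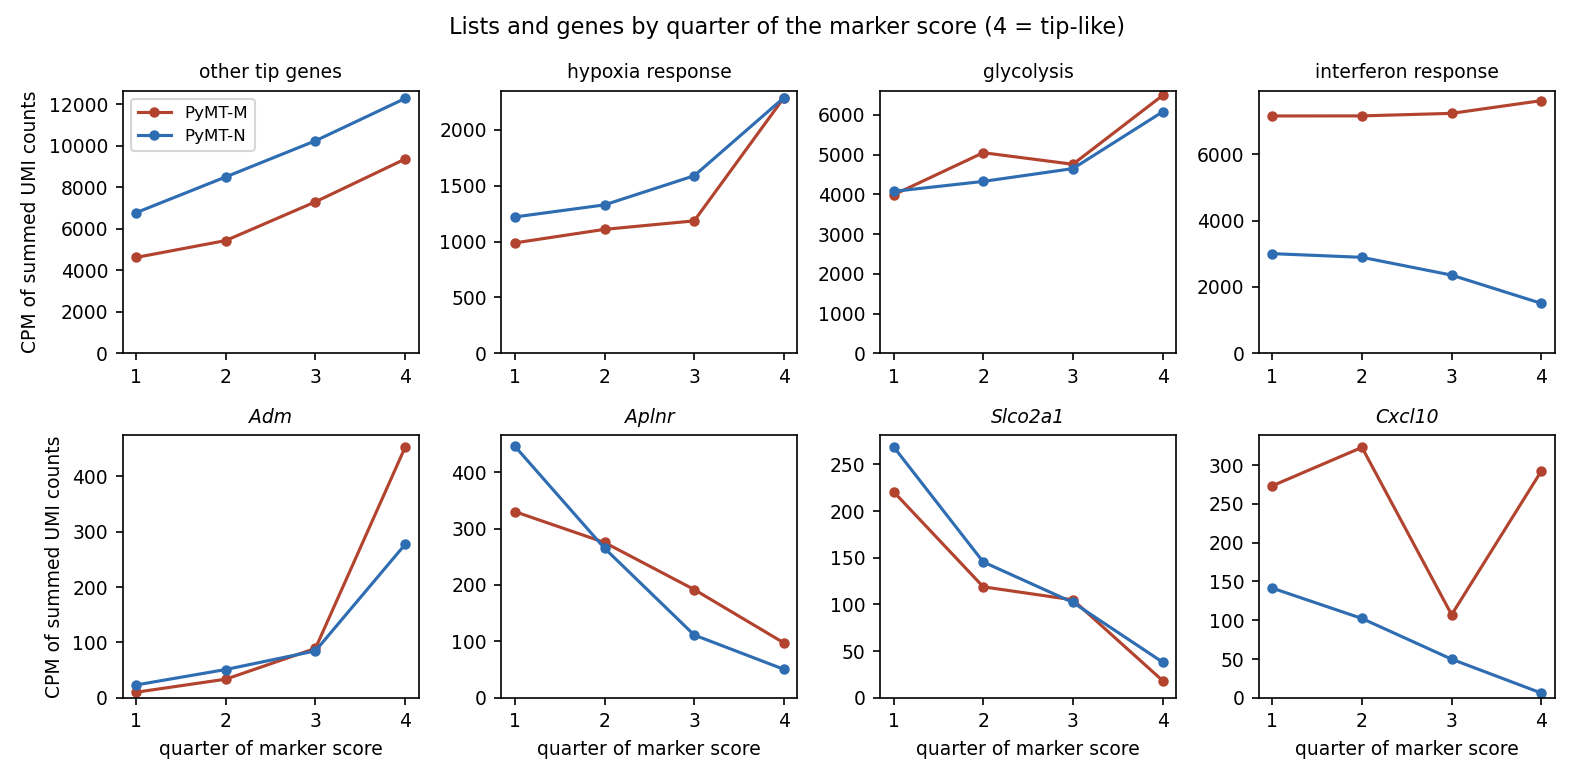
CPM of summed UMI counts (vertical axes, from 0) by group of the marker score (horizontal axes, 1 to 4, 4 is the tip-like class) for 4 gene lists and 4 genes in PyMT-M (red) and PyMT-N (blue). Adm goes from 10.1 to 452 CPM in PyMT-M, Aplnr from 446 to 50.6 CPM in PyMT-N, and the interferon sum from 3002 to 1504 CPM in PyMT-N.

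The order along the score was gradual for some genes and abrupt for others. Aplnr went from 330.0 to 275, 192 and 97.4 CPM over the 4 groups in PyMT-M and from 446 to 265, 111 and 50.6 CPM in PyMT-N. Adm went from 10.1 to 33.7, 89.3 and 452 CPM in PyMT-M and from 23.2 to 51.1, 84.8 and 277 CPM in PyMT-N, so its main step came in the last group. Ccn2 (24.3, 33.7, 75.9 and 251 CPM in PyMT-M) had a like shape. Inhbb was higher at each step in PyMT-N, at 172, 260.0, 349 and 453 CPM. The 4 groups held 122, 85, 82 and 167 cells of PyMT-M and 206, 242, 245 and 160 cells of PyMT-N, so each library fills them unequally. The lowest group of PyMT-M was its 122 cells with no marker UMI. Its median was 3601 UMIs, against 5561, 4888.5 and 5416 in groups 2 to 4. The part of depth in these shapes was not tested.

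Cell by cell, the programs overlapped in part. Of tip-like cells 41.3% in PyMT-M and 55.6% in PyMT-N were in the top 25% of gated cells by hypoxia genes, against 11.4% and 19.6% of other gated cells. In turn 67.6% of the hypoxia-high cells of PyMT-M and 39.6% of those of PyMT-N were tip-like. For glycolysis the tip-like shares were 43.1% and 41.9%, against 20.1% and 18.8%. For interferon genes they were 55.1% and 6.25%, against 50.5% and 11.4%.

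Between the libraries' tip-like cells, 151 of 5101 genes with at least 100 UMIs over both (2.96%) were at least 2-fold higher in PyMT-M and 127 (2.49%) at least 2-fold lower, with a median log2 ratio of -0.02. Of these, 90 (1.76%) were also at least 2-fold higher in the other gated cells and 78 (1.53%) also lower there. Of 25 interferon genes 21 had enough UMIs, and these were at least 2-fold higher in PyMT-M tip-like cells, with a median of 2.61 against 1.35 in the other gated cells. Since UMIs are counted over both libraries, a gene can enter through the library where it is high, as Cxcl10 did (285 UMIs of PyMT-M, 14 of PyMT-N). This count describes the genes that entered and is no support for the list. The sum over all 25, which needs no minimum, had a log2 ratio of 2.34 (1.40 in the other gated cells). Of 16 antigen presentation genes 14 had enough UMIs, and 12 of them were at least 2-fold higher, with medians of 1.64 and 1.05. None of 15 ranked glycolysis genes passed 2-fold in either direction, nor did any of 8 Notch genes. Of 4 ranked venous genes 3 were at least 2-fold lower in PyMT-M, and of 14 axon guidance genes 4 were lower and 1 higher. Their sums had log2 ratios of -1.47 and -0.57. Vwf was the most abundant gene of the venous sum, and Robo1 of the axon guidance list was at 26.7 CPM in PyMT-M and 378 CPM in PyMT-N. The study names Vwf, Robo1 and Sema6a as higher in PyMT-N from these libraries, so these directions were known beforehand. The venous and axon guidance genes too can enter through the library where they are high, and the gate limits 2 of the venous list.

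The 10 genes highest in PyMT-M included interferon targets and chemokines. Serpinb1a, an inhibitor of neutrophil proteases, was at 213 CPM in PyMT-M and 4.40 CPM in PyMT-N tip-like cells, a log2 ratio of 5.60 (4.69 to 6.68) against 2.66 in the other gated cells. Cxcl10, at 292 and 6.16 CPM, had a log2 ratio of 5.57 (4.80 to 6.46) against 1.35 there, but 29 PyMT-M cells and 5 PyMT-N cells had a UMI and 5 cells held 68.1% of its PyMT-M UMIs. Serpinb1a had a UMI in 49 PyMT-M and 7 PyMT-N cells, and 5 cells held 45.7% and 80% of its UMIs. Ccl2, a monocyte chemoattractant that the study names from these libraries, was at 157 and 8.79 CPM, with 55.6% of its PyMT-M UMIs in 5 cells. Cxcl12 was at 201 and 18.0 CPM, a log2 ratio of 3.48, and Cfb, a complement factor, at 98.5 and 8.35 CPM. For Cxcl12 5 cells held 41.8% of the PyMT-M and 58.5% of the PyMT-N UMIs. Ifit3, at 304 and 24.2 CPM, Ifi206, Ifi213, Apol9a and Apol9b made up the 10, with log2 ratios of 3.65, 4.30, 3.94, 4.04 and 4.02. All 10 were also higher in PyMT-M in the other gated cells, by log2 ratios of 1.35 to 2.89.

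The 10 genes lowest in PyMT-M tip-like cells included a guidance receptor, channel subunits and a matrix gene. Robo1, a Slit receptor that the study names from these libraries, was at 26.7 CPM in PyMT-M and 378 CPM in PyMT-N, which is -3.83 (-4.45 to -3.26) on the log2 scale. Kcnj8 and Abcc9, the subunits of a vascular potassium channel, were at 17.4 and 210.2 CPM and at 41.0 and 195 CPM. Bgn, the proteoglycan biglycan, was at 19.5 and 120.5 CPM, and Spsb1 at 29.7 and 160 CPM. Tnik, Cpe (carboxypeptidase E), Khdrbs3, Trf (transferrin) and Ccdc85a followed, with log2 ratios of -2.40, -2.30, -2.17, -2.14 and -2.13. These 10 too were lower in PyMT-M in the other gated cells, from -1.09 for Bgn to -4.01 for Kcnj8.

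Markers of other cell types were low, in part because the gate limits Krt8, Krt18, Rhox5, Col1a1, Col3a1 and Ptprc and allows no Prox1, and their part in the results was not tested. The 12 tumor cell markers summed to 75.9 CPM in tip-like cells of PyMT-M and 189 CPM in those of PyMT-N, against 56.7 and 234 CPM in the other gated cells, with Spp1 the most abundant and Krt19, Krt14, Epcam and Cdh1 at 0. Markers of fibroblasts summed to 15.4 and 6.59 CPM (reference 15.9 and 8.76 CPM), and those of immune cells to 16.4 and 25.1 CPM (reference 15.9 and 15.6 CPM), with Csf1r, Cd3e and Cd79a at 0. Mural markers summed to 80.0 and 416 CPM (reference 76.0 and 313 CPM), of which Kcnj8 and Abcc9 gave most, while Rgs5 was at 3.08 and 3.96 CPM, Pdgfrb at 1.03 and 1.32 CPM and Cspg4 at 0. Of the lymphatic markers, at 72.8 and 122 CPM (reference 74.0 and 159 CPM), Flt4 was the most abundant and Pdpn and Reln were at 0, as was Prox1 by the rule. Hemoglobin and Alas2 reads summed to 103 CPM in tip-like cells of PyMT-M, where 94 of 100 UMIs came from 1 cell, and to 14.9 CPM in PyMT-N (reference 0.69 and 31.9 CPM). UMIs of the 7 cell cycle genes, under the limit of the gate, were found in 33.5% of tip-like cells of PyMT-M and 23.8% of PyMT-N, against 33.2% and 28.0% of the other gated cells. Their sum was lower in tip-like cells, the deeper class, at 107 against 159 CPM in PyMT-M and 26.8 against 39.1 CPM in PyMT-N.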

How the data were processed

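The authors deposited raw UMI counts per gene and cell barcode for 33696 genes, whole numbers without normalization, made with Cell Ranger 8.0.0 on mm39 per the labels. Sources differ on the dissociation: the labels give collagenase I and the methods section collagenase II plus dispase II. The members and lists were chosen with earlier results of these data known. Cells were gated by the limits above. Counts were summed per library and class and scaled to CPM, and ratios carry exact intervals of a ratio of Poisson counts, shares Clopper-Pearson intervals, at 95%. The ratio of the tip-like shares has a large-sample interval on the log scale and their difference one combined from the limits of both shares. Genes named are the 5 markers, the 10 highest and 10 lowest tip-like over other ratios by the library nearer to 0, the 10 highest and lowest PyMT-M over PyMT-N ratios among genes whose lower library held at least 10 UMIs (mt-, Rpl, Rps, Gm and Rik symbols left out), and members of 30 lists holding 370 genes, 26 of them in more than 1 list. The study names Bst2, Ifi27l2a, Ccl2, Hsp90aa1, Vwf, Sparcl1, Fn1, Col4a2, Robo1 and Sema6a from these libraries. Values of some single list members are not reported here. Doublets were not called. The study's Wilcoxon and MAST tests over cells were not used. Alternatives covered the score, cell limits, depth, scaling and UMI minimum. Scripts were tested on simulated data. Tools were Python 3.11.15 with matplotlib 3.10.9, pandas 2.3.3, scipy 1.17.1 and numpy 2.4.6.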

Additional observations from a re-analysis of the deposited data

Results flagged for a closer look

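For some lists and genes the tip-like over other ratio lay on opposite sides of 0 in the 2 libraries, beyond counting error, and these differences between libraries were not tested. As PyMT-M minus PyMT-N on the log2 scale the difference was 0.94 for interferon response, 0.51 for antigen presentation, -0.89 for capillary markers, -0.41 for arterial markers, -0.43 for VEGF ligands and receptors and -0.23 for endothelial identity markers. The last 2 lists hold genes that the gate used. Without these genes, a choice made after seeing the data, the VEGF ratio was below 0 in both libraries (-0.31 and -0.11), and the identity ratios were -0.12 and 0.06. The interferon ratio of PyMT-M and the arterial ratio of PyMT-N changed side of 0 in 7 and 3 of 19 alternatives. The difference was 8.31 for erythroid genes, where 94 of 100 UMIs in tip-like cells of PyMT-M came from 1 cell and 270 of 284 UMIs in the other gated cells of PyMT-N from another. Among named genes it was 4.22 for Cxcl10, 2.94 for Serpinb1a, 2.41 for Ifi206 and 1.48 for Apol9b. Cxcl10 had a UMI in 5 tip-like cells of PyMT-N, and Serpinb1a and Ifi206 in 7 each.

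Cells kept out by the cell cycle limit alone, which passed every other limit, lie outside the comparisons. Of these, 17 of 53 in PyMT-M (32.1%, exact interval 19.9 to 46.3%) and 9 of 73 in PyMT-N (12.3%, 5.80 to 22.1%) had a marker score at or above the tip-like limit. Their medians of 8147 and 17594 UMIs were above those of tip-like cells.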

How the results depend on the processing

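The share ratio of 1.95 ran from 1.00 to 2.43 over 16 alternatives: 1.00 with the top 25% taken within each library, which its construction fixes, 1.32 with gated cells limited to the top and the lowest 25%, 1.53 with the mean of log2(CPM + 100), 1.57 without Apln and 2.43 with the top 10%. Of the counts over 21 alternatives, the 57 higher genes became 86 against the lowest 25%, 121 at 20 UMIs and 10 at 500 UMIs, and the 73 lower genes 128 with the top 10%, 46 without Pgf, 48 after thinning, 45 with cells chosen on one part of the UMIs and measured on the rest, 318 at 20 and 8 at 500 UMIs. The 151 genes higher in PyMT-M became 68 with the top 10%, 73 with the divided UMIs, 478 and 24 at the 2 UMI limits, and the 127 lower 196 with the top 25% within each library, 416 and 29. The other 79 values stayed within 1.5-fold or the interval. All 1140 values of the genes named among the 10 highest or lowest kept their side of 0, as did 1607 of the list values, while 98 did not. Their sizes were less steady: 161 gene values lay outside the counting interval, as did 434 list values on the same side of 0 and 43 on the other. The genes among the 10 highest or lowest were chosen for extreme ratios in these same cells. That they kept their side is therefore little evidence of stability. Single genes named only as list members were not run under the alternatives. In PyMT-M Chga ran from 0.85 with the top 10% to 4.44 with no UMI of other cell types (3.07 as reported) and Adm from 2.82 with no cycle UMI to 5.48 against the lowest 25% (3.40). Interferon response in PyMT-M ran from -0.23 to 0.19 and in PyMT-N from -1.0 to -0.62. The direction turned for immune markers in PyMT-N with the top 10% (-0.22) and for erythroid genes, in PyMT-N with the top 10% (0.56), the lowest 25% (4.17) and no cycle UMI (4.08), and between libraries with no cycle UMI (-0.96) and with high-UMI cells left out (-1.10). The cause was not tested. The PyMT-M cells hold the fewest UMIs, which limits rare genes. No paired analysis was possible because each model has 1 library.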

Other observations

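Stress and growth genes not described above differed by small ratios. The 17 immediate early and stress genes summed to 4165 CPM in tip-like against 3165 CPM in other gated cells of PyMT-M and to 2653 against 2485 CPM in PyMT-N. Of 15 ranked, Ier3, an early response gene that protects cells from death, alone passed 1.5-fold in both libraries, at 291 against 107 CPM and 168 against 100.5 CPM. Fos and Jun, subunits of AP-1, had log2 ratios of 0.50 and -0.28 and of 0.30 and -0.25. The study names Hsp90aa1 of this list from these libraries. Between the libraries 4 of 16 ranked genes were at least 2-fold higher in PyMT-M tip-like cells, Hspb1 among them at 941 against 273 CPM.

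The 16 replication genes summed to 372 against 590 CPM in PyMT-M and 285 against 277 CPM in PyMT-N, under a gate that limits cycling cells in both classes. Of 3 ranked none passed. The 14 genes of the Atf4 response summed to 394 against 343 CPM and 317 against 287 CPM, and the 13 genes of leukocyte adhesion and chemokines to 3175 against 3181 CPM and 1556 against 1721 CPM, with no ranked gene past 1.5-fold in both libraries. Icam1, a leukocyte ligand, was at 30.8 against 64.3 CPM and 11.4 against 16.5 CPM, and the counting interval of its PyMT-N ratio holds 0 (log2 -0.53, -1.19 to 0.08).

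Cells kept out by the Prox1 limit alone in PyMT-N reached the tip-like limit in 17 of 154 cells (exact 95% binomial interval 6.56 to 17.1%). Together these 154 cells held 502 CPM of Angpt2 but 1.57 CPM each of Apln and Esm1. Of cells kept out by the limit on Ackr1 and Selp alone, 1 of 43 in PyMT-M and 1 of 61 in PyMT-N reached the tip-like limit. The limit on markers of other cell types alone kept out 25 cells of PyMT-M and 180 of PyMT-N, of which 2 and 10 reached it. Their medians were 9643 and 26141 UMIs.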
